A study of Mus musculus with 12 samples.

Results

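Chromosome 6 outside its antigen receptor loci was read by 9986 probes in each of 12 mouse tumours, of 10252 probes on the chromosome and 170305 on the array. The members were chosen by position, from 3131098 to 149512014 in build mm9, leaving out the 111 probes from 40504267 to 41887652, around the T cell receptor beta locus, and the 155 probes from 67408442 to 70798297, around the immunoglobulin kappa locus. The chromosome itself was selected on measured values of these same tumours, namely a mean log2 ratio that was high along its whole length in 1 lymphoma. That level is therefore given as a description, with no test.

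The samples, 4 renal cell carcinomas and 8 malignant lymphomas, came from C57BL/6 mice that were either wild type or knocked out for Mutyh, the glycosylase that removes adenine opposite oxidised guanine. Fe-NTA, an iron chelate given into the abdomen, was injected 5 times per week for 12 weeks at 3 and then 5 mg iron per kg, and animals were killed near week 120. The treated groups began with 20 males each. The carcinomas were all from treated mice, knockouts KO1080, KO1097 and KO1134 and wild type WT1179. The lymphomas of treated mice were knockouts KO1077 and KO1111 and wild types WT1113, WT1114 and WT1121. The lymphomas of untreated mice were knockout KO1414 and wild types WT1405 and WT1420. Each name joins genotype and animal number, and each tumour is 1 animal and 1 array. Every array set tumour DNA (Cy5) against normal kidney DNA of C57BL/6 mice (Cy3), so a positive log2 ratio means more tumour than reference DNA. Slide 1 held the 4 carcinomas, slide 2 held KO1077, KO1111, WT1113 and WT1114, and slide 3 held KO1414, WT1121, WT1405 and WT1420. Array signal-to-noise ratios lay between 63.6 and 124. Tumour and normal cells were measured as a mixture, so a gain of more copies in fewer cells and a gain of fewer copies in more cells cannot be told apart.

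Tumour cells often carry a whole extra chromosome, or a part of one, after errors in segregation or repair of breaks, and every gene on that stretch then has the same raised copy number. Array hybridisation reads this as a shift shared by neighbouring probes. A small inherited or somatic duplication shifts only a few neighbours, while a shift at 1 probe alone can also reflect a base difference under that probe. Mouse chromosome 6 carries the receptor kinase genes Met and Ret, the kinase gene Braf, the repair genes Ogg1, Xpc and Fancd2, and the natural killer receptor cluster.

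The probe sequences on which the focal results turn are given here as the array files list them. The first group lies in a short stretch around Cycs that was high in WT1113 and WT1114: its first probe, the probe in Cycs, and its last probe. The second pair flanks the place where segmentation put the step in KO1111. The third group holds single probes that stood away from their neighbours, with the letters ACG in capitals where they begin at base 1, 2 or 3.
first probe of the stretch, chr6:50494971-50495030: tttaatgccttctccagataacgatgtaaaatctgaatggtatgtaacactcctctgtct
Cycs, chr6:50514005-50514064: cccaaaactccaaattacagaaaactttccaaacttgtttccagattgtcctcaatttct
last probe of the stretch, chr6:50578697-50578756: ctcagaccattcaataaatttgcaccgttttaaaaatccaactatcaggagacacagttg
last probe before the step, chr6:123043954-123044013: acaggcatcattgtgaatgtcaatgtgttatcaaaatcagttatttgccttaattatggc
first probe after the step, chr6:123062507-123062566: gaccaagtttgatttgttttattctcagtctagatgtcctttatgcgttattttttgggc
Klrb1f, chr6:129001155-129001214: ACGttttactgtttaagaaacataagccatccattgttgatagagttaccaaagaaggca
Plekha5, chr6:140537016-140537075: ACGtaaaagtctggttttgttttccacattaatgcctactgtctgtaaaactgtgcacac
Sox5, chr6:143938820-143938879: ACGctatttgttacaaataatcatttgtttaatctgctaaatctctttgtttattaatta
Fancd2, chr6:113533608-113533665: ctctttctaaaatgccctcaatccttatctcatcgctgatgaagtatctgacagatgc
Dlx5, chr6:6830418-6830477: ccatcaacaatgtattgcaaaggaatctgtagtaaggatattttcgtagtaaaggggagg

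WT1405, a lymphoma of an untreated wild-type mouse, carried a gain of the whole of chromosome 6. Its members averaged 0.52 on the log2 scale, with a median of 0.51 and an SD over probes of 0.19. In linear terms tumour DNA was present at 1.43 times the reference, and 99.6% of its members read above 0. The other 11 tumours lay between -0.03 and 0.08. Among the carcinomas the level was 0.00 in both KO1080 and KO1134, -0.01 in KO1097 and 0.02 in WT1179, a mean of 0.00 ± 0.01 (SD, n = 4). Among the treated lymphomas it was 0.04 in KO1077, 0.08 in KO1111, 0.02 in WT1113, 0.06 in WT1114 and 0.00 in WT1121, a mean of 0.04 ± 0.03 (SD, n = 5). The other untreated lymphomas read -0.03 in KO1414 and 0.00 in WT1420. WT1405 thus stood apart from every other tumour, including the 3 on its own slide, which lay between -0.03 and 0.00.

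**Figure D1:**
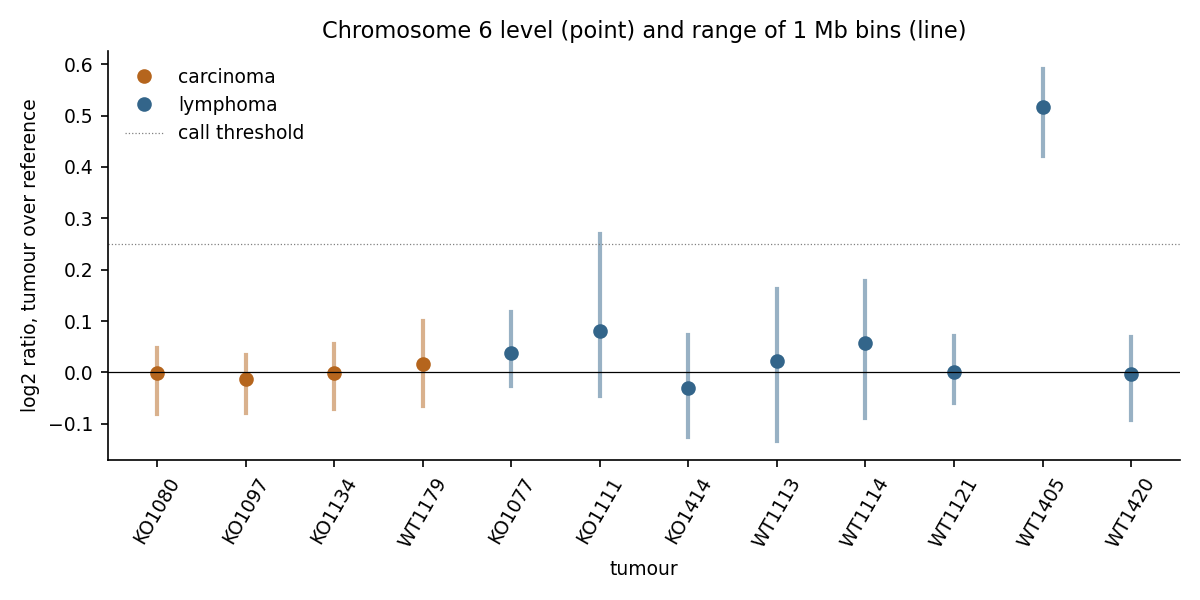
Mean log2 ratio of the chromosome 6 members in each tumour (points) with the lowest and highest 1 Mb bin (lines), for carcinomas (brown) and lymphomas (blue); the dotted line is the threshold of 0.25 for calling a segment. WT1405 reads 0.52 and the other 11 tumours lie between -0.03 and 0.08.

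The gain of WT1405 was even from end to end. In 145 bins of 1 Mb with at least 5 probes the level ran from 0.42 to 0.59, with an SD over bins of 0.03, and in 15 stretches of 10 Mb from 0.49 to 0.53. Segmentation (5 probes or more with a segment mean 0.25 or farther from 0 made a call) returned 5 gained stretches with means of 0.49 to 0.52. They were parted only by 4 single probes that read higher still, at 86405758, 113533608, 125991029 and 129001155, and together they held 99.96% of the chromosome's probes. The T cell receptor beta interval averaged 0.50 and the kappa interval 0.44 in this tumour, and 1 unbroken segment, from 3131098 to 86398737, covered both. In 7 other lymphomas 9 losses were called there. Calls are made from each array's 0, so on top of a gain at 0.52 a drop as deep as theirs would not be called a loss. The called gains included 1 stretch shorter than 10 Mb, from 126007238 to 128995073 at 0.49, which is a part of the whole-chromosome gain bounded by 2 of those single probes and holds the cyclin gene Ccnd2 and the cell cycle factor gene Foxm1.

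**Figure D2:**
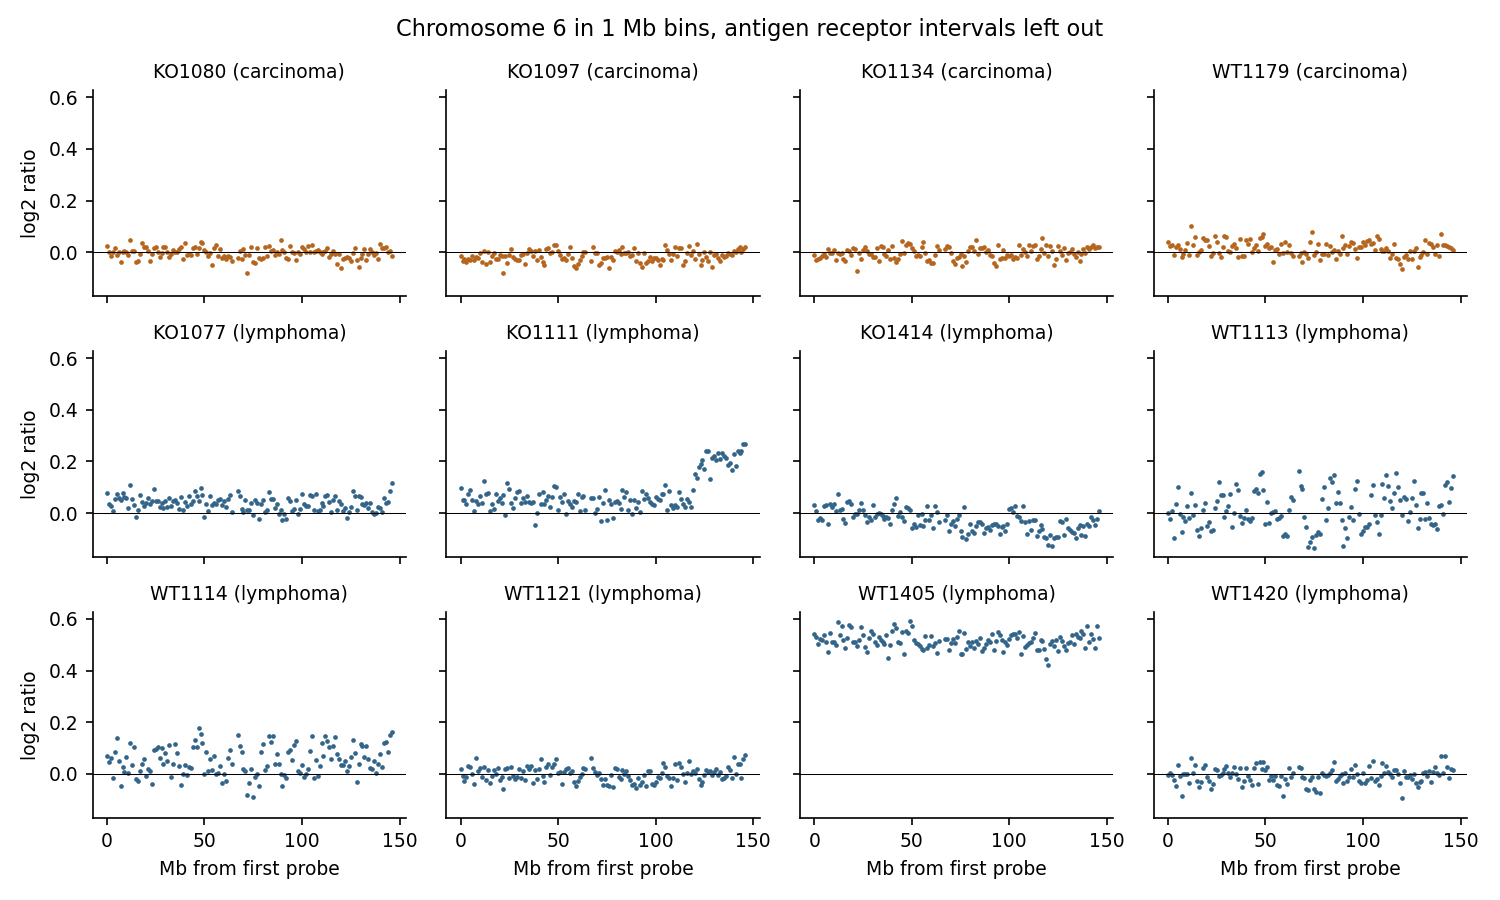
Mean log2 ratio in 1 Mb bins along chromosome 6 by distance from the first probe, 1 panel per tumour, with both receptor intervals left out. WT1405 runs between 0.42 and 0.59 along its whole length, KO1111 steps up in its distal stretch, and WT1113 and WT1114 show wider waves than the carcinomas.

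Within WT1405, chromosome 6 stood above every other gained autosome, taken here as one with a mean above 0.15. Of these, 11, 15 and 17 held called gains, while 1, 5 and 18 averaged under the call threshold of 0.25. The autosomes 1, 5, 11, 15, 17 and 18 averaged 0.24, 0.23, 0.27, 0.29, 0.27 and 0.23, a mean of 0.26 ± 0.02 (SD over 6 chromosomes), and the remaining 12 lay between -0.02 and 0.07. The lowest 1 Mb bin of chromosome 6, at 0.42, was above the highest of the 741 bins of those 6 chromosomes, at 0.39. On the linear scale the excess over the reference was 0.43 for chromosome 6 and 0.19 ± 0.02 for the other 6, so it was 2.22 times their mean, with a range of 1.94 to 2.49 times the single chromosomes. For comparison by arithmetic, 3 copies over 2 in every cell would read 0.58. Of the 228 levels of an autosome in a tumour, that of chromosome 6 in WT1405 was the highest, followed by chromosome 15 in WT1113 at 0.37. A short called gain in WT1405 read higher, with 24 probes of chromosome 14 from 69863952 to 70090608 at 0.92.

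**Figure D3:**
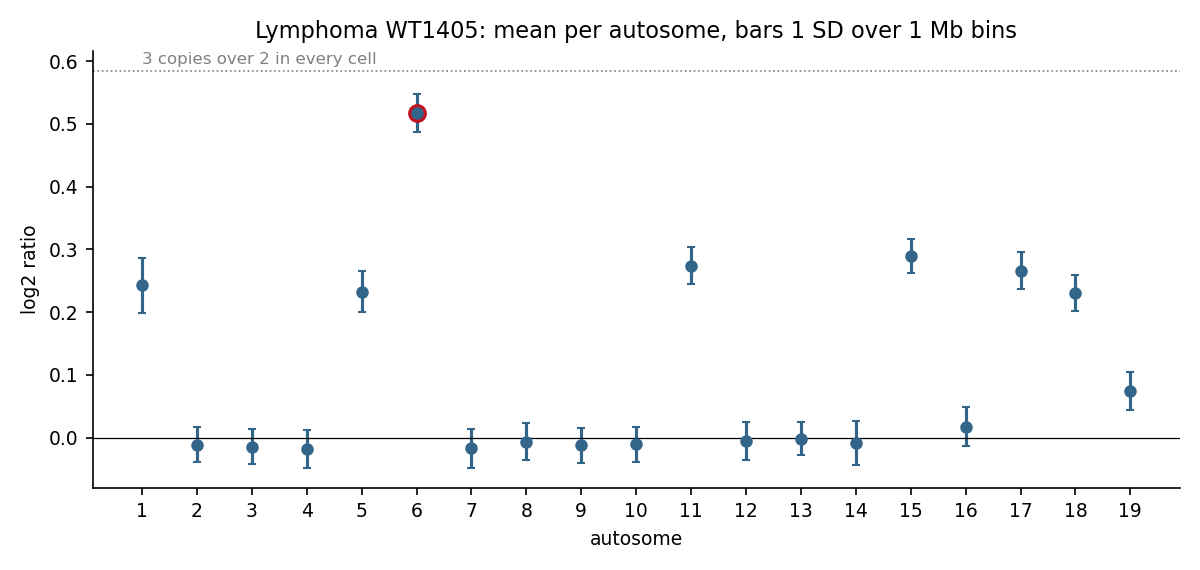
Mean log2 ratio of each autosome in lymphoma WT1405, with bars of 1 SD over 1 Mb bins and chromosome 6 ringed in red; the dotted line marks 0.58, the value of 3 copies over 2 in every cell. Chromosome 6 at 0.52 lies above the 6 other gained autosomes (means above 0.15) at 0.23 to 0.29.

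The genes of chromosome 6 followed this level. Of 1126 member genes, 97.7% read at least 0.25 in WT1405, with a median of 0.51, as did all 99 measured genes of 10 lists of growth, repair, lymphocyte, kidney and other genes. Met, the receptor of hepatocyte growth factor, read 0.59 over 12 probes, Braf, a kinase of the RAS pathway, 0.63 over 12 probes, and Ret, a receptor kinase of kidney development, 0.44 over 6 probes. Tgfa, a ligand of the epidermal growth factor receptor, read 0.51 over 7 probes, and Ptpn6, a phosphatase of blood cells, 0.67 at its 1 probe. These levels are a description, since the chromosome was chosen for them. Genes with at least 2 probes that stood farthest above the chromosome's median in WT1405 were Zfp862 (by 0.71), C87436 (0.56), Ing3 (0.47), Pcyox1 (0.46) and AK144227 (0.31). The excesses of Zfp862 and C87436 rest largely on 1 probe each. The probe at 86405758, within C87436, read 2.39 in WT1405, against 1.07 for the mean of that gene's 3 probes. Of the 2 probes of Zfp862, that at 48465802 stood 1.41 above the median of its neighbours in WT1405. Those farthest below the chromosome's median were Ccdc126 (-0.37), Clec4b1 (-0.32), ENSMUST00000163769 (-0.28), Clec1a (-0.26) and Clec2g (-0.25). The lowest of these, Ccdc126, still read 0.14.

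In the other 11 tumours most of these growth genes stayed near the chromosome's level. Met read between 0.04 and 0.16, Braf between -0.05 and 0.17, Ret between -0.12 and 0.00 and Tgfa between -0.09 and 0.15. Ptpn6, read by 1 probe, ranged from -0.35 in KO1414 to 0.19.

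The hypoxia and renal tumour genes stayed near the chromosome's level in the carcinomas. Vhl, the ubiquitin ligase subunit that degrades hypoxia-inducible factors, read -0.08, 0.03, -0.01 and -0.16 in KO1080, KO1097, KO1134 and WT1179 at its 1 probe, and between -0.19 and 0.15 over the 11 tumours other than WT1405. Mitf, a transcription factor gene of renal and pigment cell tumours, read between -0.05 and 0.09 over 22 probes, and Hk2, a hexokinase, between -0.05 and 0.09 over 4 probes. Kdm5a, a histone demethylase, lay between -0.01 and 0.19, and Hipk2, a kinase that acts on p53, between 0.00 and 0.17. Aqp1, the water channel of the proximal tubule, lay between -0.04 and 0.20. All 7 measured genes of this list stayed within 0.25 of the chromosome's median in every tumour.

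Among the 9 DNA repair genes, 5 stayed within 0.25 of the chromosome's median in every tumour. Ogg1, the glycosylase that removes oxidised guanine and acts beside Mutyh, was read by 1 probe at 113280022 to 113280081. It read 0.33, 0.28, 0.42 and 0.47 in KO1077, KO1111, WT1113 and WT1114, the arrays of slide 2, and between -0.02 and 0.24 in the other 7 tumours without the gain. Rad18, a ubiquitin ligase of damage tolerance, lay between -0.04 and 0.05 over 6 probes, and Xpc, which recognises damage in nucleotide excision repair, between -0.18 and -0.04 over 3 probes. Rad52, of homologous recombination, split by slide like Ogg1 over 2 probes, at 0.23 to 0.34 on slide 2 and -0.08 to 0.09 elsewhere. Mbd4 (-0.02 to 0.19), Apobec1 (-0.04 to 0.16) and Fancd2 (-0.15 to 0.24) showed smaller ranges, and Rad51ap1 lay between -0.06 and 0.21 except in KO1111 at 0.38. Rad51ap1 lies in the distal stretch that was raised in KO1111, described below. Slide moved with the value for Ogg1 and Rad52, and its part in them was not tested.

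Most genes of the other lists also stayed near the chromosome's level. All 20 very large genes stayed within 0.25 of the chromosome's median in every tumour, as did all 9 kidney transport and podocyte genes, 8 of 11 cell cycle and chromatin genes, 10 of 15 lymphocyte genes, 12 of 18 natural killer receptor genes, 1 of 2 measured Hoxa genes and 4 of 5 imprinted genes. Cntnap2, the largest of them on the array with 218 probes, lay between -0.04 and 0.06 outside WT1405, and Ezh2, the methyltransferase of the Polycomb complex, between 0.00 and 0.08. Gata2, a transcription factor gene of blood progenitors read by 1 probe, had the widest range of the lymphocyte list, from -0.76 in WT1179 to 0.65 in WT1420. Of the 22 list genes that left this range in any tumour, 14 were read by 1 probe. Among all 99 measured list genes, 67 had at least 2 probes. The share of all member genes within the range is not given here, so these counts do not set any list apart. In KO1111, 17 of the 18 natural killer receptor genes lie in a raised distal stretch, described below.

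KO1111, a lymphoma of a treated knockout, carried a smaller gain of the distal part of the chromosome. From 123062507 to 149512014, a stretch of 26.4 Mb with 1900 probes, it averaged 0.21, against 0.05 over the 8085 probes before it. The 26 bins of 1 Mb after the step lay between 0.13 and 0.27, and all 26 lay above the highest of the 118 bins before it, at 0.12. In the other 11 tumours the mean after the step minus that before it lay between -0.04 and 0.01, against 0.16 in KO1111. Segmentation put the change between the probe ending at 123044013 and that starting at 123062507, with a penalty of 5, 10 and 20 alike. The place is less exact than those 18.5 kb: over the 50 probes before and after it the medians were 0.13 and 0.11 and the means 0.12 and 0.17, and over 200 probes the medians were 0.04 and 0.13. The place was chosen on KO1111, so the difference across it is a description. Because the mean of 0.21 is under 0.25, the stretch was not called. It was called when the threshold was lowered to 0.15.

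**Figure D4:**
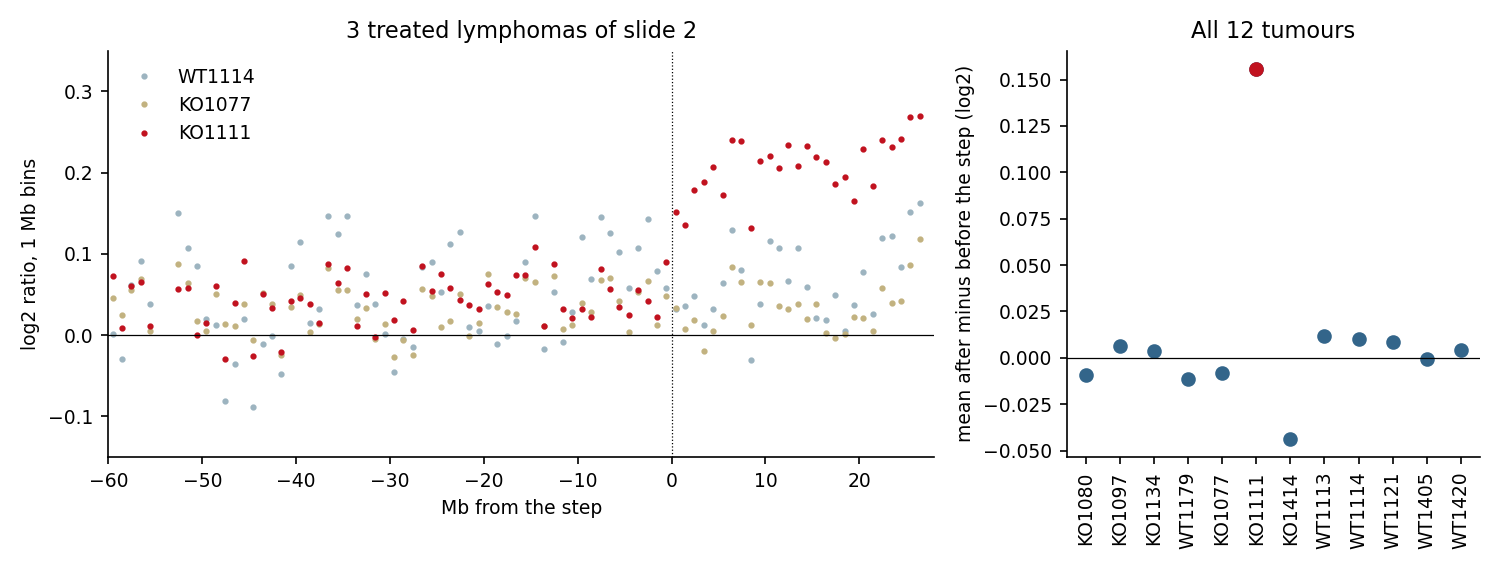
Left, log2 ratios in 1 Mb bins by distance from the step in KO1111 (red), with KO1077 and WT1114 of the same slide; right, mean after the step minus mean before it in all 12 tumours. KO1111 differs by 0.16 across the step, and the other 11 tumours by -0.04 to 0.01.

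The distal stretch of KO1111 had a level like that of other low gains in the same tumour. Chromosome 15 averaged 0.22, chromosome 16 also 0.22, and the gained part of chromosome 17 was at 0.25. Chromosome 11 held stretches of 3.98 and 10.6 Mb at 0.52 and 0.49. The distal stretch carries 293 gene names. Of these, Etv6, a transcription factor gene of blood stem cells, read 0.23 over 24 probes in KO1111, Grin2b, a glutamate receptor subunit, 0.22 over 48 probes, and Tmtc1 0.27 over 20 probes. The T cell co-receptor gene Cd4 read 0.04 over 3 probes.

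WT1113 and WT1114, lymphomas of treated wild types, shared a focal gain of 10 neighbouring probes around Cycs, the gene of cytochrome c. The stretch ran from 50494971 to 50578756, 83.8 kb, and the flanking probes without the shift bound it to at most 126 kb. It averaged 0.65 ± 0.13 (SD over 10 probes) in WT1113 and 0.67 ± 0.14 in WT1114, against 0.09 and 0.11 over the 50 probes on each side. All 10 probes read above 0.4 in both tumours. In the other 10 tumours the stretch exceeded its flanks by 0.02 to 0.12. The ends of the stretch were set on WT1113 and WT1114, so these levels and differences are a description. The Cycs probe read 0.52 in WT1113 and 0.43 in WT1114, and between -0.24 and 0.10 in the 9 tumours with neither this gain nor that of the whole chromosome. The neighbouring transcript 5430402O13Rik, with probes at 50521332 to 50539732, read 0.76, 0.86, 0.60 and 0.49 in WT1113 and 0.77, 0.89, 0.61 and 0.57 in WT1114, while those 9 tumours lay between -0.13 and 0.35 at the same 4 probes. The stretch was not called at the penalty of 10. At a penalty of 5 it was called in both tumours with the same first and last probe, and it was then the only called segment outside WT1405 and the receptor intervals. A search for 3 neighbouring probes each over 0.5 from the local median, chosen after the values were seen, returned 2 runs on chromosome 6, both in this stretch and in these 2 tumours, of 109 on all autosomes.

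**Figure D5:**
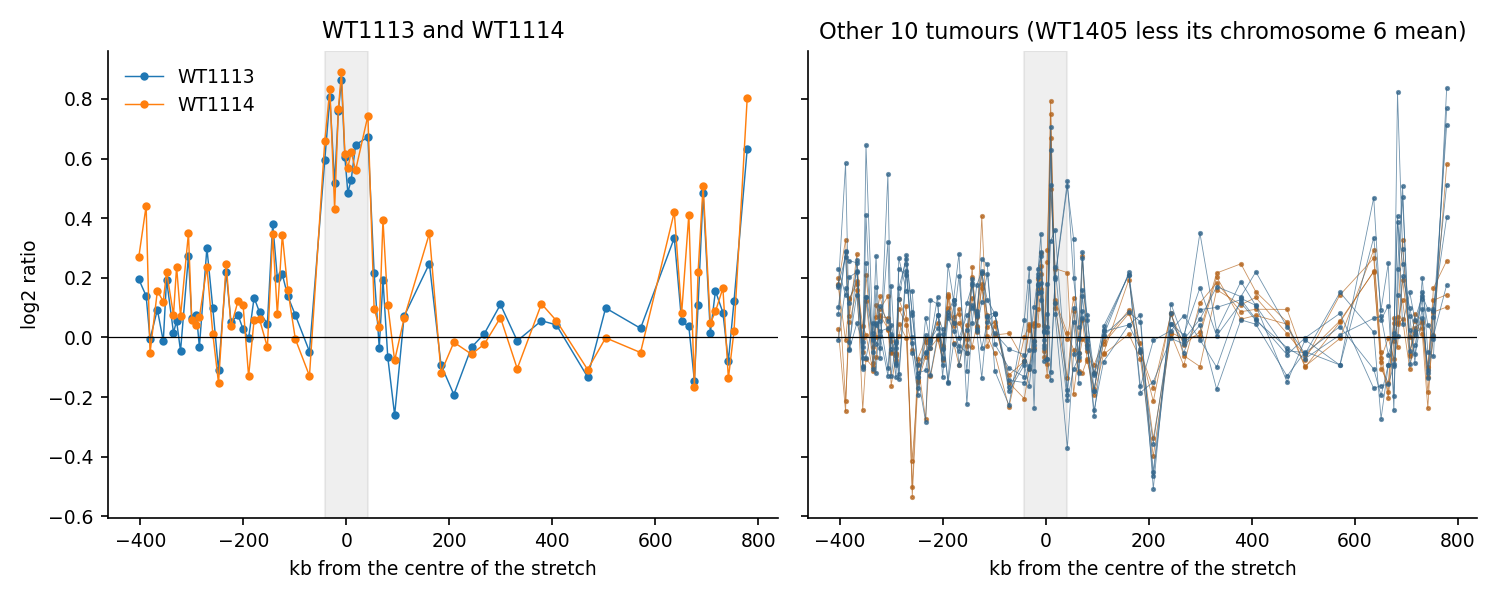
Log2 ratio of single probes by distance from the centre of the stretch around Cycs (shaded), in WT1113 and WT1114 (left) and in the other 10 tumours (right, carcinomas brown, lymphomas blue, with the chromosome 6 mean of WT1405 subtracted). All 10 probes in the shaded stretch lie above 0.4 in both tumours on the left.

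At 2 of its 10 probes other tumours were high as well. At 50546172, in 4921507P07Rik, KO1077 and KO1111 read -0.14 and -0.12 and the other 10 tumours between 0.50 and 0.84. At the last probe, 50578697, KO1077 and KO1111 read 0.52 and 0.51, near WT1113 and WT1114 of the same slide at 0.67 and 0.74, and the 8 arrays of the other slides lay between -0.37 and 0.34. The distal end of the stretch rests on that probe, and without it the stretch has 9 probes, ends at 50554880 and spans 59.9 kb. WT1113 and WT1114 lie on the same slide, and their 1 Mb bins along chromosome 6 also moved together (r = 0.92 over 145 bins, a description, since all bins share probes and reference). Their SDs over bins were 0.07 and 0.06, against 0.02 to 0.03 in the carcinomas. Chromosome 15 averaged 0.37 in WT1113 and 0.07 in WT1114, while chromosome 1 averaged 0.20 and 0.26 and chromosome 7 0.25 and 0.21. The waves were not particular to chromosome 6, with SDs over bins of 0.06 in WT1113 and 0.05 in WT1114 on chromosome 3. Other arrays of 1 slide also moved together in part. On slide 1, r over the chromosome 6 bins ran from 0.06 (KO1134 and WT1179) to 0.84 (KO1097 and KO1134). Why WT1113 and WT1114 moved together on chromosome 6 was not tested.

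No other called segment lay outside the receptor intervals in the other 11 tumours. Longer uncalled segments had means between -0.08 and 0.21, and 4 carcinomas were each returned as 1 unbroken segment. WT1113 was divided into 10 segments outside the intervals, which alternated between -0.08 and 0.11. In KO1414 stretches of 10 Mb ran from -0.09 to 0.01, with an SD over 15 stretches of 0.03.

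Single probes made up the remaining focal signal. Segmentation returned 10 segments of 1 probe, each over 1. Probes more than 1 above the median of the 51 probes around them numbered 26 in WT1405, 23 in WT1121, 14 in WT1114, 13 in WT1420, 9 each in KO1111 and KO1414, 4 each in KO1077 and WT1113, and at most 2 in each carcinoma. Probes more than 1 below numbered 5 in WT1179 and at most 2 in every other tumour. The other autosomes showed the same order at the top, with 0.235% of probes high in WT1405 and 0.185% in WT1121 against 0.26% and 0.23% of the members.

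In the 3 wild-type lymphomas of slide 3, WT1121, WT1405 and WT1420, 18 of 9986 members read more than 0.7 above their local median. On the other autosomes 328 of 151208 probes did so. Above the local median, the Fancd2 probe read 1.84, 1.95 and 1.65, the Klrb1f probe 1.68, 2.17 and 1.01, the Sox5 probe 2.09, 1.75 and 1.46, and the Plekha5 probe 1.47, 1.50 and 1.11. The carcinomas averaged 0.10, 0.17, 0.04 and 0.09 at these 4 probes, and the knockout on the same slide, KO1414, read -0.03, 0.00, 0.49 and -0.11. The 4 arrays of slide 2 were between these, averaging 0.86, 0.35, 0.85 and 0.64. Not all of the 18 were particular to the 3 lymphomas. The probes in Hibadh, Ctnna2, Cadps2 and Rassf4, also among the 18, read 1.85, 1.62, 1.45 and 1.09 in KO1414. The carcinomas averaged 0.92, 0.79, 0.76 and 0.68 there. Fancd2, a gene of interstrand crosslink repair, illustrates the difference between a probe and its gene. Over its 7 probes, with this high probe still included, the gene read 0.18 in WT1121 and 0.23 in WT1420. In these probes as listed, ACG began at base 1, 2 or 3 in 6 of 18, against 1.27% of all members. On the other autosomes it did so in 34 of 328 probes chosen the same way, or 10.4%, against 1.24% of all probes. The motif and the cut of 0.7 were chosen after the values were seen. Only the listed strand was searched, and the match is a description.

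Probes in Hibadh, Ctnna2 and Cadps2 read more than 0.5 above their neighbours in all 12 tumours. Hibadh, a mitochondrial dehydrogenase of valine breakdown, read between 0.84 and 1.85 above, Ctnna2, a catenin of neurons, between 0.61 and 1.62, and Cadps2, a factor of vesicle release, between 0.58 and 1.45. Since every tumour was set against the same kind of reference, a probe that is high in all of them does not separate tumours. At 18 members the 4 arrays of slide 2 read at least 0.3 above all other arrays, and at 0 members at least 0.3 below. That is 0.18% of the members, against 392 of 151208 probes, 0.26%, on the other autosomes, where 5 lay below. The arrays of slide 1 lay above all others at 4 members and below at 3, and those of slide 3 at 1 and 1. The widest such gap was at a probe in Iqsec1, at 90702077, where slide 2 lay between 0.63 and 0.98 and the other 8 arrays between -1.07 and -0.37.

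The carcinomas and the lymphomas were compared to ask whether the tumour types differ on this chromosome. The mean level was 0.00 ± 0.01 in the 4 carcinomas and 0.04 ± 0.03 in the 5 treated lymphomas, a difference of -0.04. The exact permutation test, two-sided, gave p = 0.0317, or 0.067 after adjustment over 19 autosomes. The difference did not pass the correction, and with the median in place of the mode as each array's 0 it turned to 0.02. The smallest p that the 126 splits allow is 0.0159. Slide and tumour type cannot be told apart, since slide 1 held all carcinomas and no lymphoma.

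By gene, 9 of 1126 members, 0.80%, differed between carcinomas and lymphomas (limma, adjusted p under 0.05, adjusted for genotype and treatment), against 13.6% of all 20281 genes tested. All 9 rest on 1 probe each. When only genes with at least 2 probes were fitted with limma, 0 of 686 members were called, against 1570 of 12501 genes. Of those members 10 had an unadjusted limma p under 0.05, against 3144 of the 12501 genes. Dlx5, a homeobox gene of limb and bone, was lower in carcinomas by a log2 difference of -1.10 ± 0.18 (SE), with a limma adjusted p of 0.00081. It read -0.48, -1.12, -1.46 and -1.45 in the 4 carcinomas and between -0.18 and 0.09 in the lymphomas other than WT1405. Creld1, an endoplasmic reticulum protein gene, was lower by -0.41 ± 0.10, with a limma adjusted p of 0.0147, and read between -0.54 and -0.26 in carcinomas and between -0.09 and 0.15 in those lymphomas. Zfp786, a zinc finger gene, was higher by 0.62 ± 0.16, with a limma adjusted p of 0.0195. It read 0.74 to 0.85 in the carcinomas, but KO1414 and WT1121 also read 0.67 and 0.72 and the other 5 lymphomas without the gain lay between -0.05 and 0.27. The other called genes were AK166886, ENSMUST00000155922 and BB283400, lower in carcinomas, and Zfp637, AK135761 and 4921507P07Rik, higher. Of these, 4921507P07Rik read 0.50 to 0.79 in the carcinomas and -0.14 and -0.12 in KO1077 and KO1111. The remaining lymphomas read 0.51 to 0.84, much like the carcinomas. AK166886 and ENSMUST00000155922 read 0.34 to 0.65 and 0.43 to 0.64 on slide 2, and -0.16 to 0.00 and -0.32 to 0.08 in KO1414, WT1121 and WT1420 of slide 3. The chromosome's level had an SD of 0.18 over the 8 lymphomas and of 0.04 over the 7 without WT1405. Without WT1405 62 members, 5.51%, were called, against 14.6% of all genes. None of the list genes passed in the full comparison.

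Between knockouts and wild types, 0 members were called by limma, against 0.0641% of all genes. An unadjusted limma p under 0.05 was reached by 6 of 1126 members, against 1035 of 20281 genes. No member probe separated the genotypes by 0.3, while 113 of 151208 probes of other autosomes did. Of these, 111 lie on chromosome 4, the chromosome of Mutyh, which leaves 2 of 141232 probes elsewhere. Between treated and untreated tumours, 0 members and 0.0% of all genes were called by limma. There 116 of 1126 members had an unadjusted limma p under 0.05, against 2126 of 20281 genes. Median treated minus untreated differences were -0.11 over the members and 0.02 over all genes, with WT1405 among the untreated tumours. Without WT1405 these medians were 0.06 and 0.05. The chromosome was chosen for the gain of WT1405, so the difference over the members is a description. Without WT1121, 4 members, 0.36%, were called between treatments, against 467 genes or 2.3% of all. Among lymphomas, leaving out WT1121 puts all treated tumours on slide 2 and all untreated ones on slide 3. Slide and treatment then cannot be told apart there. Without WT1179, 1 member was called, 0.089%, against 2 genes or 0.00986% of all.

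Over all 12 tumours, the genes with at least 2 probes that stood highest above the chromosome's median on average were Zfp862 (0.28), Nfe2l3 (0.27), Lhfpl4 (0.24), Hebp1 (0.24) and Capza2 (0.21). The lowest were Mug1 (-0.21), Clec4b1 (-0.19), Uroc1 (-0.17), Loxl3 (-0.14) and Il17rc (-0.14). At 1 of the 2 probes of Zfp862, at 48465802, WT1121, WT1405 and WT1420 averaged 1.03 above the local median. The carcinomas averaged 0.25 there and the arrays of slide 2 averaged 0.55. Uroc1, an enzyme of histidine breakdown, and Clec4b1, a lectin receptor, lay below the chromosome's median in all 12 tumours. Nfe2l3, a transcription factor gene, lay between 0.15 and 0.50 above it in 10 tumours, at 0.01 in WT1405 and at -0.15 in WT1420.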

How the data were processed

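DNA copy number was measured on 2-colour Agilent arrays, 1 per tumour. The deposited red and green intensity values were, per the file headers, processed signals from version 10.7.1.1 of Agilent Feature Extraction, run with a CGH protocol on mm9 positions. The submitters' processing notes name the same tool. Agilent's own log ratio, per the file headers a log10 value, and the series-wide table, by comparison with the deposited scanner signals a log2 ratio without centring, were used as alternatives. The direction follows the dyes in the labels.

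The log2 of red over green was taken per probe, outlier spots were left out, repeated spots averaged, and each array centred on its autosomal mode (kernel bandwidth 0.05), as the members' rule asks. Depth does not apply to arrays, and their number limits the precision. Segmentation used penalised least squares with a penalty of 10 times the logarithm of the probe number times the noise variance, tested on simulated data. Gene values, the mean of a gene's probes, were fitted with limma 3.58.1 in R 4.3.3, with additive terms for treatment, genotype and tumour type and all 12 tumours in 1 fit. Other values were computed with Python 3.11.15 and scipy 1.17.1, with Benjamini-Hochberg adjustment. Of 1131 gene names among the members, 813 matched a current or older symbol. The rest were kept as listed.

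The named genes were those inside called focal segments, the members of the lists, the 5 highest and 5 lowest genes with at least 2 probes over all tumours and in WT1405, and others singled out after their values were seen. Some list genes are not reported here. The members and lists were chosen with earlier results of these data known. The alternatives were the centring, Agilent's log ratio, the series-wide table, normexp background correction with an offset of 50, outlier and dim spots, the mode's bandwidth, the median over members, the receptor intervals, the call threshold, penalty and probe minimum, probes centred over arrays, slide as a block, and each tumour left out. No label says more of how samples were taken than 1 tumour per animal number, so p-values measure the spread between these tumours.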

Additional observations from a re-analysis of the deposited data

Results flagged for a closer look

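The level of chromosome 6 in WT1405, 0.52, lay far above that of the other 7 lymphomas. The chromosome was chosen for this value, so the distance is a description and no test of it is given. The mean after the step minus the mean before it in KO1111, 0.16, lay apart from the other treated lymphomas and from all 8 lymphomas. The place of the step was set on KO1111, so this distance too is a description.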

How the results depend on the processing

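The level of WT1405 moved from 0.52 to 0.44 with centring on the median and to 0.58 with normexp background correction. Under normexp its excess over the tumour's other long called gains moved from 0.24, over 3 other chromosomes with such a call, to 0.30, over 6. Against the same 6 autosomes in both, a comparison chosen after seeing the data, it was 0.26 and 0.31. At a call threshold of 0.4 no other gain over 10 Mb was called, so no such value exists. Carcinomas minus treated lymphomas turned from -0.04 to 0.021 with median centring and shrank to -0.01 with normexp. Its adjusted p over all alternatives ran from 0.0603 to 0.663.

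Called segments numbered 5, but 14 with a penalty of 5 and 1 with a penalty of 20. Tumours with a call numbered 1 (WT1405), 2 with normexp or with probes centred over arrays (with WT1113, around Cycs), 2 at a threshold of 0.15 (with KO1111) and 3 with a penalty of 5. The stretch around Cycs exceeded its flanks by 0.46 to 0.67 in WT1113 and by 0.46 to 0.68 in WT1114 over 10 settings. Members called between tumour types numbered 19 with median centring, 0 with at least 2 probes per gene, 15 with slide as a block, and 2 to 62 with each tumour left out in turn (2 without KO1111, 3 without KO1077, 14 without KO1414, 20 without WT1121 and 62 without WT1405). The slide block cannot part slide from tumour type, since slide 1 held all carcinomas and no lymphoma. The estimated correlation within slides was -0.035, and 3163 of all genes were called with the block, against 2762 without it. Between treatments the count ran from 0 to 4 with each tumour left out (4 without WT1121, when 467 of all genes were called). With WT1121 left out, treatment and slide coincide in the lymphomas. Between genotypes the count was 0 under all 20 alternatives. Levels of the other 11 tumours lay between -0.03 and 0.09, but 10 of their 110 alternative values, in 7 tumours, moved by more than the spread. With normexp KO1111 went from 0.08 to 0.04, WT1114 from 0.06 to 0.00 and KO1077 from 0.04 to 0.00. No paired analysis was possible because each animal number occurs once.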
